A study of Homo sapiens with 16 samples.

Results

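The translated content of untreated lung cancer lines was compared with that of untreated melanoma lines, by ribosome profiling, which counts the mRNA fragments that ribosomes shield from nuclease (footprints). Of the 16 libraries in the series, the 8 made after 30 min in the solvent DMSO were used, 2 from each of 4 established human lines. The lung lines were NCI-H1650, an adenocarcinoma line, and NCI-H520, a squamous carcinoma line; the melanoma lines were Hs 936.T and A375. All 4 carry the same label for genetic background, WT, and all 8 libraries share the solvent and the exposure time. The cell-line label of NCI-H520 DMSO replicate 2 reads NCI-H521 and its title names NCI-H520, under which it was placed. Genes were taken for which both lines of one tumour type lay above both lines of the other, here called separated genes: each of the 4 contrasts of a lung with a melanoma line had to pass an adjusted p of 0.05 in the same direction (edgeR, quasi-likelihood, adjusted over all tested genes by Benjamini and Hochberg). Of 10775 named genes, 7917 passed the filter on low counts, and 1047 of those were separated (13.2%). The labels do not say whether replicate libraries came from separate cultures, so p-values measure the spread between these libraries. The statements are about these 4 lines. The files give transcript entries without gene names, and genes were named from runs of coding lengths, so a small share of names may be wrong.

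Lung carcinomas arise from epithelium, whose cells are held together by E-cadherin junctions, claudin-based tight junctions and keratin-anchored desmosomes. Melanomas arise from melanocytes, pigment cells of neural crest origin, which lack keratins and carry the filament protein vimentin. The transcription factors of the ZEB family repress E-cadherin and other epithelial genes, while GRHL2 and the splicing factors ESRP1 and ESRP2 belong to the epithelial program. Melanoma lines range from pigmented cells driven by the transcription factor MITF to cells that have lost pigment genes.

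Depth differed with tumour type. Counts over named genes ranged from 629711 to 809556 in the lung libraries and from 2158927 to 3500823 in the melanoma libraries, so genes near the detection limit were read with less precision in the lung lines. A count of 3 equalled 3.71 to 4.76 CPM (counts scaled to a common total over named genes) in a lung library and 0.857 to 1.39 CPM in a melanoma library. Libraries also held reads of another line's genes. Over 9 pigment genes of Hs 936.T, the median level was 3.70% of the Hs 936.T level in NCI-H520 DMSO replicate 1 and 7.42% in replicate 2, against 0.462% or less in both NCI-H1650 libraries and 0.148% or less in both A375 libraries. Another 39 genes were read in NCI-H520 and under 1% of it in both melanoma lines. Over these, NCI-H1650 DMSO replicate 1 had a median of 9.14% of the NCI-H520 level. Most of them stood at 4.09% or more there, whereas replicate 2 had some at 0 and a median of 2.65%. Counts or differences without NCI-H520 are given beside part of the results on genes higher in melanoma and on gene lists. The other results are given with all lines only.

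The labelled origins were checked against defining markers. Summed over 31 named epithelial genes, the level was 9836 to 30267 CPM in the lung libraries and 1371 to 2585 CPM in the melanoma libraries. Of 13 named genes of lung and airway epithelium, 6 had 0 counts in all lung libraries and 7 were read. The surfactant genes SFTPA1 and SFTPB, the transporter gene SLC34A2, the mucin gene MUC5AC and the alveolar gene HOPX had 0 counts in all 8 libraries. ALDH1A1, an aldehyde dehydrogenase gene, stood at 1832 and 1801 CPM in NCI-H520, where the whole list summed to 1892 and 1862 CPM, and at 95.7 and 2.92 CPM in NCI-H1650. NKX2-1, the transcription factor of lung and thyroid development, had 2 and 8 counts in NCI-H520 (3.13 and 10.6 CPM) and 0 counts in NCI-H1650. In melanoma it stood at 1.11 CPM or less. The 25 pigment cell genes summed to 584 to 3250 CPM in the lung libraries, to 37347 and 38272 CPM in Hs 936.T, and to 1063 and 1314 CPM in A375. Hs 936.T stood far above A375, and the melanosome protein gene PMEL stood at 21556 and 22463 CPM in Hs 936.T and at 23.5 and 13.0 CPM in A375. Of 9 named markers of fibroblasts, endothelium and blood, CD74, the class II invariant chain, held most of the reads, at 180 and 207 CPM in NCI-H1650 and at 3589 and 3747 CPM in A375.

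**Figure D1:**
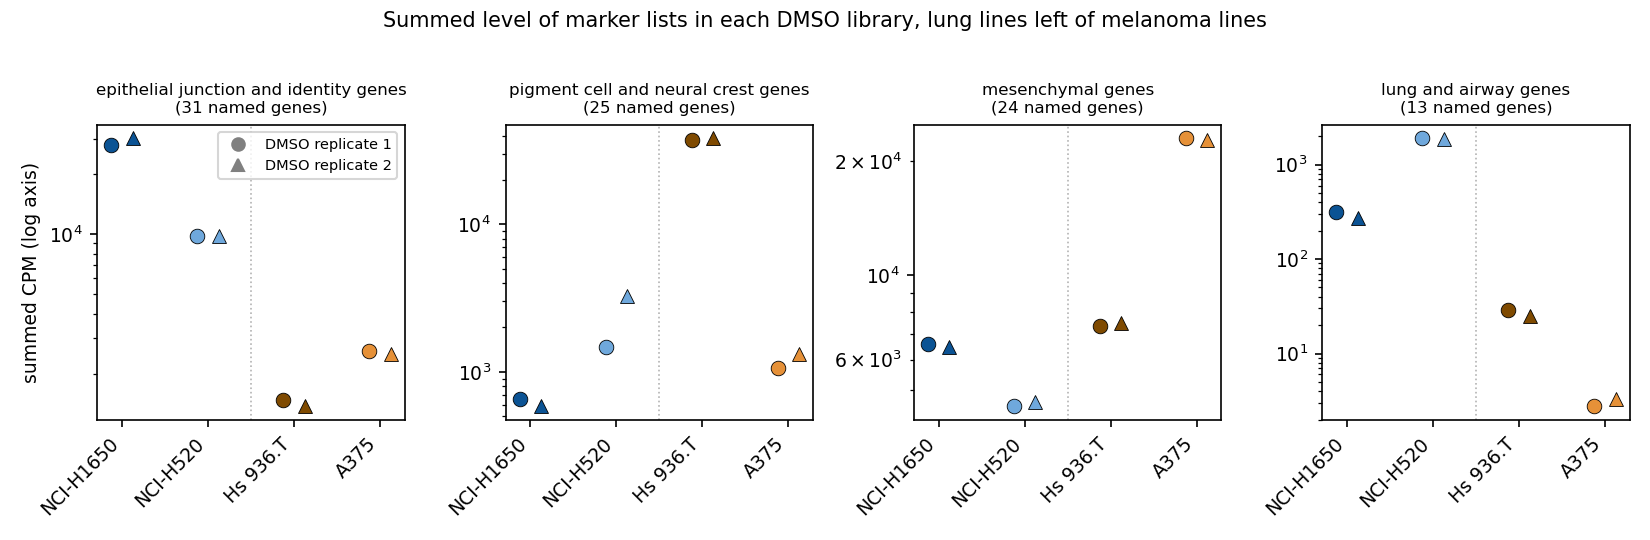
Summed level of 4 marker lists in each DMSO library, in CPM on a log axis, with the lung lines left of the melanoma lines and a symbol for each replicate. The epithelial sum is higher in all 4 lung libraries (9836 to 30267 CPM) than in the melanoma libraries (1371 to 2585 CPM), and the pigment sum sets Hs 936.T apart from A375.

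The question of the comparison was which genes ribosomes occupied more in both lines of one tumour type. In the lung lines 536 of 7917 genes were higher (6.77%), and in the melanoma lines 511 (6.45%). By order of the fitted levels alone, without a threshold, both lung lines lay above both melanoma lines for 1416 genes (17.9%) and below them for 1399 (17.7%). The fitted differences were larger on the lung side, at unequal depth. Of the 536 lung-higher genes, 293 differed by at least 4-fold and 200 by at least 16-fold, with a median of 2.36 on the log2 scale, against 177 and 69 of the 511 melanoma-higher genes, with a median of -1.42; the medians are the same with genes at 0 counts set to their bound. In 70 of the lung-higher genes the melanoma libraries held no count at all, and in 11 of the melanoma-higher genes the lung libraries held none, counts that depend on the unequal depth. The lung-higher genes took 9.88% to 15.6% of named footprints in the lung libraries and 4.34% to 5.47% in the melanoma libraries. The melanoma-higher genes took 5.43% to 5.85% in the lung libraries and 13.3% to 13.9% in the melanoma libraries. With all libraries thinned to 629711 counts, 380 of 6904 genes were higher in lung and 367 in melanoma. Leaving out a line removes 2 of the 4 contrasts and so eases the rule: without NCI-H520, 1873 genes were higher in lung and 1681 in melanoma, and the counts without that line given for the gene lists are to be read beside these.

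**Figure D2:**
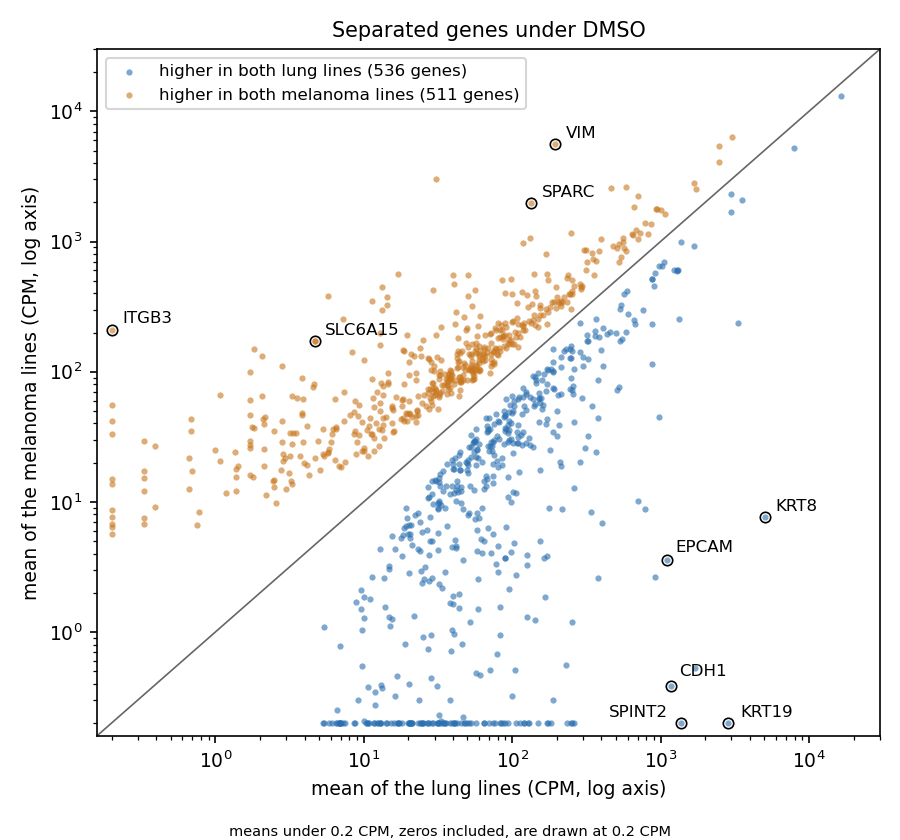
Mean level of each separated gene in the lung lines (x axis) and the melanoma lines (y axis), in CPM on log axes, with blue points for the 536 genes higher in lung and orange points for the 511 higher in melanoma. The row of blue points at the bottom holds genes with no or almost no melanoma footprints, among them KRT19 and SPINT2, while VIM and SPARC stand out above the diagonal.

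Taking the line as the replicate of its tumour type, no gene passed. On counts summed per line, 2 lines against 2, the edgeR quasi-likelihood test called 0 of 7794 genes (0%) after Benjamini-Hochberg adjustment, with a smallest adjusted p of 0.401. At an unadjusted p under 0.05 there were 493 genes (6.33%), of which 291 (3.73%) were higher in lung and 202 (2.59%) in melanoma; DESeq2 on the same sums called 166 higher in lung and 54 higher in melanoma. Of the separated genes, 251 of the lung-higher and 185 of the melanoma-higher ones were among those at an unadjusted p under 0.05. An exact permutation of 2 lines against 2 cannot give a p under 0.333. The sizes given for single genes stand for the difference between these lines, with an SE from replicate libraries.

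Genes of epithelial identity held 8 of the 15 largest differences on the lung side. Of 52 listed epithelial genes 31 could be named and tested. Of these, 24 were separated toward lung (77.4%) and 0 toward melanoma, beside 6.77% and 6.45% of all genes. Their median log2 difference was 6.12 (also with genes at 0 counts at their bound) against -0.02 over all tested genes. The count was 24 when any single library was left out, 29 of 31 without the NCI-H520 libraries, and 28 of 30 with the lung side reduced to NCI-H1650 DMSO replicate 2, a lone library assumed to vary like those of the other lines. Both of the last fits leave only 2 contrasts to pass, and 23.3% of all genes were higher in lung without NCI-H520. KRT19, which encodes a keratin of simple epithelia (chromosome 17, 41523617 to 41528308, minus strand, GRCh38), had 4386 and 4621 CPM in NCI-H1650 and 1151 and 1165 CPM in NCI-H520, against 0 counts in all 4 melanoma libraries. Its mean over the lung libraries was at least 10040-fold higher, taking 3 counts over the melanoma libraries as the floor. Folds of this kind use the mean of both lines of the higher type and are not a bound for each line. The groups lay far apart, with NCI-H1650 above NCI-H520. Its partner keratin gene KRT8 had 7822 and 8827 CPM in NCI-H1650 and 1698 and 1730 CPM in NCI-H520, against 0.384 and 0 CPM in Hs 936.T and 15.7 and 14.7 CPM in A375. The log2 difference was 10.84 ± 0.12 (SE), or 11.73 without Hs 936.T DMSO replicate 1. KRT18, which pairs with KRT8, was also read in A375 at 478 and 467 CPM, so its difference was smaller (6.09 ± 0.09), and the lung libraries at 1398 to 5572 CPM still lay above it. Keratin genes have close paralogs and pseudogenes, and reads shared with these are uncertain.

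Cell adhesion followed the same order. CDH1, which encodes E-cadherin (chromosome 16, 68737225 to 68835548, plus strand), stood at 2112 and 2045 CPM in NCI-H1650 and at 286 and 255 CPM in NCI-H520, against 1.54 and 0 CPM in Hs 936.T and 0 in both A375 libraries. Its log2 difference was 11.50 ± 0.20 (adjusted p = 6.83e-27 in the weakest of the 4 contrasts, edgeR quasi-likelihood test), or 13.17 without Hs 936.T DMSO replicate 1, which holds all 4 of its melanoma counts. EPCAM, an epithelial surface adhesion molecule, had 653 and 488 CPM in NCI-H1650 and 1638 and 1658 CPM in NCI-H520, against 8.46 and 5.76 CPM in Hs 936.T and 0 in A375 (10.36 ± 0.17). That size depends in part on the 0 counts in A375, and the smallest of the 4 contrasts was 6.29. Here NCI-H520 was the higher lung line. The tight junction gene CLDN7 had 298 and 332 CPM in NCI-H1650 and 188 and 191 CPM in NCI-H520 with 0 melanoma counts, at least 894-fold higher in lung. Of the other junction genes, MARVELD3 was at least 177-fold and TJP3 at least 123-fold higher (a call lost on thinned counts for TJP3). TJP3 stood at 77.4 and 54.1 CPM in NCI-H1650 and at 3.13 and 3.98 CPM in NCI-H520, so its fold follows NCI-H1650. MARVELD2 (5.95 ± 0.39), F11R (4.37 ± 0.12) and the polarity gene LLGL2 (4.61 ± 0.21) had some melanoma reads. MARVELD2 had 0 counts in A375, and its smallest contrast was 2.37. The desmosome and cornified-layer genes DSP (3.80 ± 0.13), PKP2 (6.12 ± 0.55) and PKP3 (6.89 ± 0.28) were separated as well. DSP, the plakin that ties keratins to desmosomes, kept 55.7 and 53.2 CPM in Hs 936.T and 6.91 and 11.6 CPM in A375, below the 266 to 397 CPM of the lung libraries.

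The regulators of the epithelial state were among them. GRHL2, a transcription factor that maintains E-cadherin expression, had 163 and 148 CPM in NCI-H1650 and 21.9 and 41.1 CPM in NCI-H520, against 0 counts in melanoma, at least 331-fold higher. The splicing factor gene ESRP2 was at least 229-fold higher. Its paralog ESRP1 had 187 and 187 CPM in NCI-H1650 and 239 and 244 CPM in NCI-H520, against 42.7 and 31.9 CPM in Hs 936.T and 0.461 and 0 CPM in A375. That is a log2 difference of 6.12 ± 0.19, or 6.96 without A375 DMSO replicate 1, with Hs 936.T keeping part of the lung level. SPINT2, a membrane inhibitor of serine proteases, had 2180 and 2425 CPM in NCI-H1650 and 438 and 441 CPM in NCI-H520, against 0 counts in melanoma, at least 4863-fold higher. SPINT1, the related inhibitor, differed by 6.23 ± 0.15. The sodium channel gene SCNN1A was at least 526-fold higher in the mean of the lung libraries. It had 275 and 285 CPM in NCI-H520 and 15.5 and 17.5 CPM in NCI-H1650, so the fold follows NCI-H520. Of the 7 tested members that were not separated, CDH3, CGN and GRHL1 had differences between 1.73 and 5.46 on the log2 scale, and MUC1 had a ratio of 453 (95% counting interval 155 to 2199). MUC1 was read in NCI-H1650 at 262 and 248 CPM and in NCI-H520 at 0 and 1.33 CPM, so the lung lines were apart. ERBB3, counted on a 106-codon entry of a gene whose longest entry has 1333, stood at -0.37 ± 0.06 and EPPK1 at -1.30 ± 1.30.

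Promoters of the separated epithelial genes are shown for the E-box CACCTG, searched on both strands, a sequence that ZEB repressors bind. Promoter sequences of RefSeq (GRCh38.p14, 250 bases before to 50 bases after a start site) were matched by symbol for 6518 of 7917 tested genes, and for 8 of the 24. The E-box was in 3 of these 8, which are printed 5' to 3' on the gene's strand with the E-box or its reverse complement in capitals: AP1M2, a clathrin adaptor subunit of polarised epithelia (chr19:10587263-10587562, minus strand); DSP (chr6:7541421-7541720, plus strand); and MAP7, a microtubule-binding protein gene (chr6:136550373-136550672, minus strand).
AP1M2: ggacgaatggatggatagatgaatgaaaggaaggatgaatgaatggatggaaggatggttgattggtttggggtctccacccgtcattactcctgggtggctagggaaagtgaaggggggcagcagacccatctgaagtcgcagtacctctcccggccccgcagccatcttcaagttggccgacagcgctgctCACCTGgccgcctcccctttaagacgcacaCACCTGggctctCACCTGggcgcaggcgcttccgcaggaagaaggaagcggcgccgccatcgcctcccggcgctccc
DSP: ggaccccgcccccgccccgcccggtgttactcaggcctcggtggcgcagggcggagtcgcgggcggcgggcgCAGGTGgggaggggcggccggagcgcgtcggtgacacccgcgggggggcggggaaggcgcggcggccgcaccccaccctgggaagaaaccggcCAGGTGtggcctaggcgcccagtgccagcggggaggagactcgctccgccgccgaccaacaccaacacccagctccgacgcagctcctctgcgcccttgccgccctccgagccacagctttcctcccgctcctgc
MAP7: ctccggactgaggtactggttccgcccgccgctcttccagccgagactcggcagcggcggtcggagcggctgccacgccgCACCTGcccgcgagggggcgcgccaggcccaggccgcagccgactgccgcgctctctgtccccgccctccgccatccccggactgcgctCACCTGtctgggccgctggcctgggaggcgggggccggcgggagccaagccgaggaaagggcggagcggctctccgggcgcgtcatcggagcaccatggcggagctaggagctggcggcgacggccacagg

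AP1M2 held 3 copies of the E-box, all just before its start site, and DSP and MAP7 held 2 each. Over promoters of the same length, the E-box was found in 28.4% of 415 lung-higher genes and in 13.7% of 415 melanoma-higher genes, against 18.3% of all 6518. The M-box core of MITF (CATGTG, searched on both strands) was in 5.54% of the lung-higher and 9.16% of the melanoma-higher promoters, against 6.77% of all. For the AP-1 site TGANTCA, which reads the same on both strands, the shares were 3.61%, 5.30% and 4.17% in the same order, and the Grainyhead site AACCGGTT was in 2, 1 and 11 promoters. These are counts of letters in a window and say nothing about binding. Footprints of AP1M2 stood at 281 and 330 CPM in NCI-H1650 and 133 and 126 CPM in NCI-H520, against 3.08 and 2.22 CPM in Hs 936.T and 15.2 and 14.9 CPM in A375 (4.95 ± 0.15). MAP7 stood at 40.8 to 57.0 CPM in the lung libraries, against 2.66 CPM or less in the melanoma libraries (5.77 ± 0.33, or 6.88 without A375 DMSO replicate 2).

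Other genes led the lung side beside the epithelial list. IFI27, an interferon-induced gene, had 2615 and 3467 CPM in NCI-H1650 and 389 and 399 CPM in NCI-H520, against 0.384 to 0.830 CPM in the melanoma libraries (10.81 ± 0.17). POF1B, which encodes an actin-binding junction protein, was at least 458-fold higher, ATP8B1, a phospholipid flippase, at least 271-fold, and TRIM29 at least 263-fold. The surface glycoprotein gene CD24 was counted on a 71-codon entry where its longest has 120. It had 148 to 430 CPM in the lung libraries and 2 counts in all of melanoma. The ratio was 1397 (95% counting interval 387 to 11537, covering the counting error of the melanoma counts only). The fitted log2 difference of 10.39 was 11.38 without A375 DMSO replicate 2. PCDH19 and LRRTM1, genes of neuronal adhesion, were among the 15 largest differences on the strength of NCI-H520. LRRTM1 had 19.7 and 1.46 CPM in NCI-H1650 and 517 and 455 CPM in NCI-H520, and without NCI-H1650 DMSO replicate 1 the call was lost (8.61, adjusted p = 0.0739, edgeR). PCDH19 had 33.8 and 5.84 CPM in NCI-H1650 and 511 and 384 CPM in NCI-H520. Its fitted difference of 10.31 was 9.52 without NCI-H1650 DMSO replicate 1, and the call was lost on thinned counts. Over the 39 genes read in NCI-H520 and little in melanoma, the NCI-H1650 libraries had medians of 9.14% and 2.65% of its level. The part of such reads in the NCI-H1650 levels of LRRTM1 and PCDH19 was not tested. Of all 536 lung-higher genes, 57 had one lung line under 10% of the other, the lower being NCI-H1650 in 24 and NCI-H520 in 33. The same was so in 10 of the 511 melanoma-higher genes. For these genes the part of reads from another line in the lower level was not tested.

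**Figure D3:**
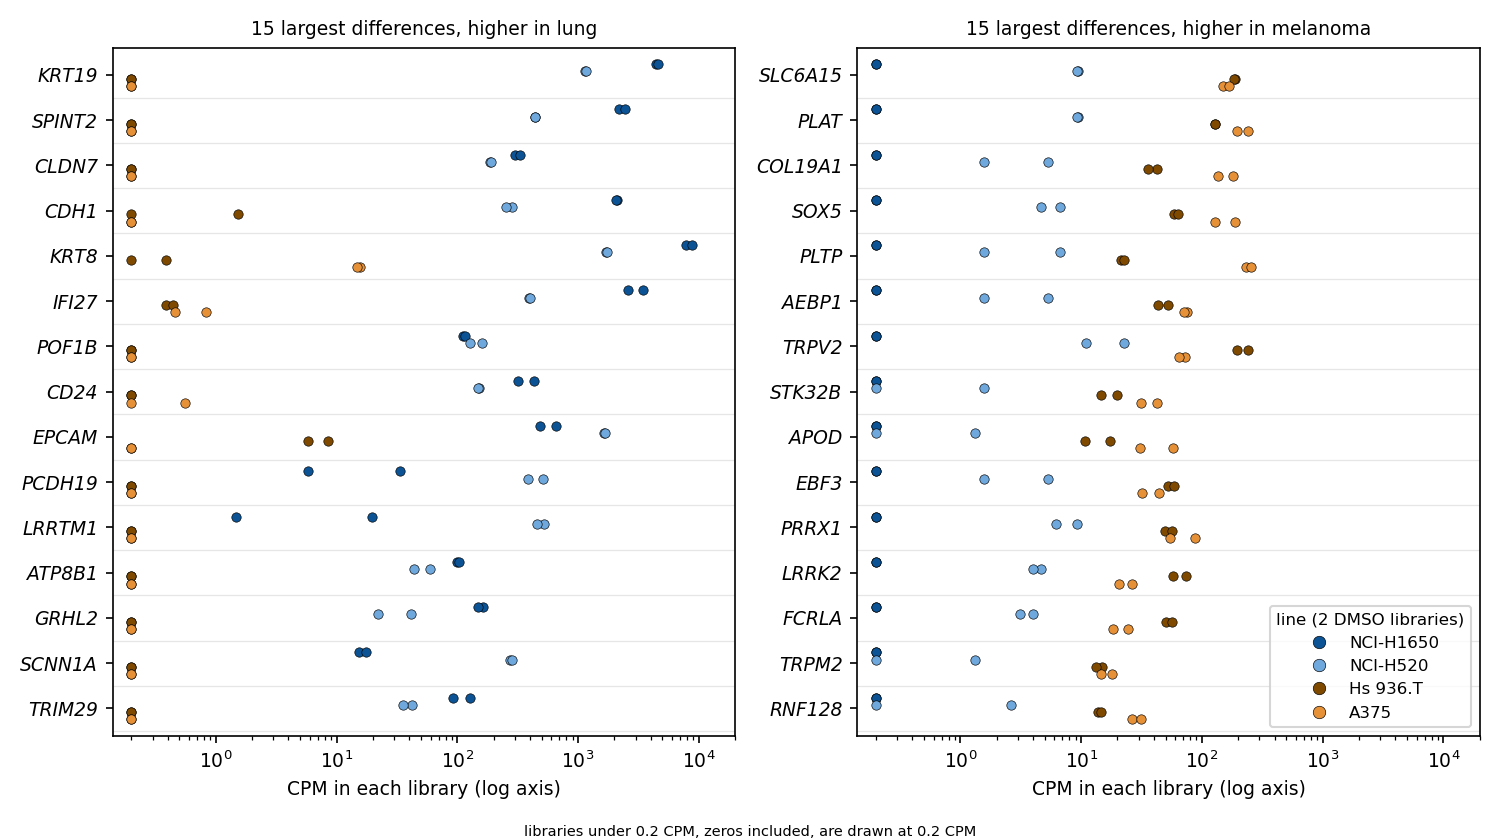
Level in each DMSO library of the 15 largest differences in each direction among separated genes with at least 10 CPM in both lines of the higher tumour type, in CPM on a log axis, with 2 points per line. On the left most melanoma points lie at 0, and on the right both NCI-H1650 points lie at 0 for every gene while NCI-H520 has low but detectable levels for most.

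Squamous and airway genes were separated in part. Of 24 squamous genes 7 were tested, and 3 were higher in both lung lines (42.9%, beside 6.77% of all genes): TRIM29, KRT17 and KRT13. TRIM29, a marker of squamous epithelium, had 91.5 and 127 CPM in NCI-H1650 and 42.2 and 35.8 CPM in NCI-H520, against 0 counts in melanoma. Both lung lines carried it, with the adenocarcinoma line above the squamous one. KRT17 differed by 4.78 ± 0.44, or 6.67 without Hs 936.T DMSO replicate 2 and 6.69 without A375 DMSO replicate 2, and KRT13, with 6 counts or fewer in each library and a ratio of 56.6 (95% counting interval 10.2 to 2237), no longer passed the count filter without any 1 of 7 libraries. The call of KRT13 was also lost under DESeq2. KRT5, KRT15 and PKP1 had 14.1 to 161 CPM in NCI-H1650 and at most 6.63 CPM in NCI-H520. For these genes the adenocarcinoma line NCI-H1650 lay above NCI-H520. TP63 was not tested. It had 3 and 2 counts in the NCI-H1650 DMSO libraries (4.22 and 2.92 CPM), and 0 in the other DMSO libraries and in NCI-H1650 under RocA. These are too few counts to order the lines. Of 24 lung and airway genes 6 were tested and 3 separated toward lung (50%). WFDC2, a secreted protease inhibitor of airways, had 103 and 111 CPM in NCI-H1650 and 7.82 and 5.30 CPM in NCI-H520, against 0 in Hs 936.T and 1.38 and 0.553 CPM in A375 (6.64 ± 0.68). AGR2, needed for mucin folding, was at least 127-fold higher, a call lost without NCI-H520 DMSO replicate 2 (log2 difference 7.26) and on thinned counts. It stood at 54.9 and 83.3 CPM in NCI-H1650 and at 1.56 and 3.98 CPM in NCI-H520, so the fold follows NCI-H1650. ABCA3, the lamellar body transporter, had at most 20.3 CPM and lost its call without any 1 of 6 libraries, among them NCI-H1650 DMSO replicate 1 (4.08, adjusted p = 1, edgeR).

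On the melanoma side the largest differences were on genes of varied function. SLC6A15, a neutral amino acid transporter, had 0 in both NCI-H1650 libraries and 9.38 and 9.28 CPM in NCI-H520, against 188 and 186 CPM in Hs 936.T and 149 and 167 CPM in A375. The log2 difference was -7.69 ± 0.30 (adjusted p = 1.68e-17 in the weakest contrast, edgeR quasi-likelihood test). The smallest of its 4 contrasts was 4.08 in absolute size. NCI-H1650 had 0 counts for all 15 of the largest differences. Their sizes depend in part on the value the fit gives to 0 counts, which the SE does not cover. PLAT, tissue plasminogen activator, had the same lung levels, against 128 and 129 CPM in Hs 936.T and 196 and 239 CPM in A375 (-7.65 ± 0.32). Its smallest contrast was 3.77 in absolute size. For both genes all lung libraries lay below all melanoma libraries, with NCI-H1650 at 0 and NCI-H520 low but read. COL19A1 (-7.26 ± 0.45), the transcription factor gene SOX5 (-7.24 ± 0.46), the lipid transfer protein gene PLTP (-7.01 ± 0.43), AEBP1 (-6.82 ± 0.45) and the channel gene TRPV2 (-6.74 ± 0.36) came next. Without NCI-H520 DMSO replicate 2, COL19A1 stood at -7.90, PLTP at -7.78 and AEBP1 at -7.47. COL19A1 was not called where the entry with most counts per codon stood for the gene. EBF3 (-6.48 ± 0.50, or -7.12 without that library), PRRX1 (-6.34 ± 0.51), the kinase gene LRRK2 (-6.13 ± 0.51) and FCRLA (-6.04 ± 0.53) were also among the 15. STK32B, APOD, TRPM2 and RNF128 had 1 or 2 counts over the lung libraries, with ratios of melanoma to lung of 75.5, 81.6, 42.6 and 30.1 and 95% counting intervals whose lower bounds were 13.6, 14.6, 7.64 and 8.33. These counts lay in 1 NCI-H520 library each, and without it the fitted log2 difference of STK32B was -8.56 against -6.73 with all libraries (without replicate 1), that of APOD -8.53 against -6.71, that of TRPM2 -7.81 against -5.99 and that of RNF128 -8.22 against -5.93 (without replicate 2). The call of APOD ended without NCI-H520 DMSO replicate 1 (-6.37, adjusted p = 0.0681, edgeR).

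For all 15 genes the NCI-H1650 libraries held 0 counts while NCI-H520 held between 0 and 22.5 CPM. The NCI-H520 DMSO libraries also hold reads of Hs 936.T pigment genes, at the shares given above, and the part of such reads in the NCI-H520 levels was not tested. With NCI-H1650 alone as lung all 15 stayed called. Their selection had already required the contrasts of that line to pass, so this outcome was nearly fixed in advance. Against a floor of 3 counts over the NCI-H1650 libraries, SLC6A15 was at least 80.3-fold and PLAT at least 80.5-fold lower there than the melanoma mean. TRPV2 was at least 66.4-fold and SOX5 at least 51.2-fold lower. In the RocA libraries, where the median share of the 9 pigment genes in NCI-H520 was 0.4998% at 0.3 µM and 1.40% at 3 µM, NCI-H1650 had 0 counts for all 15 genes. NCI-H520 had 0 counts at both doses for SLC6A15, PLAT, COL19A1, PLTP, APOD, EBF3, TRPM2 and RNF128, and 1 or 2 counts at 1 or both doses for SOX5, AEBP1, TRPV2, STK32B, LRRK2 and FCRLA. PRRX1, a mesenchymal homeobox factor gene, stood apart, with 5 counts (17.9 CPM) at 0.3 µM and 10 counts (32.9 CPM) at 3 µM in NCI-H520, against 46.8 and 52.0 CPM in Hs 936.T and 61.5 and 85.5 CPM in A375.

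Of 40 listed pigment cell and neural crest genes 24 were tested; 1 was higher in lung (4.17%) and 4 in melanoma (16.7%), beside 6.77% and 6.45% of all genes, with a median log2 difference of -1.76. The 4 were SOX5, the neural crest factor gene PAX3, the endothelin receptor gene EDNRB and the proteoglycan gene CSPG4, all known from melanocyte precursors or melanoma cells of either pigment state. CSPG4, the melanoma-associated chondroitin sulfate proteoglycan, had 7.04 and 4.38 CPM in NCI-H1650 and 12.5 and 29.2 CPM in NCI-H520, against 359 and 397 CPM in Hs 936.T and 415 and 602 CPM in A375 (-5.30 ± 0.28). All melanoma libraries lay above all lung libraries by more than 10-fold. EDNRB had 2.92 to 41.1 CPM in the lung libraries, against 997 and 1044 CPM in Hs 936.T and 84.8 and 108 CPM in A375 (-4.77 ± 0.17), and PAX3 had 0 to 5.30 CPM, against 72.7 and 70.5 CPM in Hs 936.T and 12.0 and 18.3 CPM in A375 (-5.88 ± 0.54). PAX3 was not called on the entry with most counts per codon. Without NCI-H520 the log2 difference of CSPG4 was -6.25 and that of EDNRB -6.19, and PAX3 was at least 20.2-fold lower in NCI-H1650. The receptor gene KIT went the other way, with 11.9 to 21.9 CPM in the lung libraries, against 2.69 and 1.77 CPM in Hs 936.T and 0 in A375 (5.15 ± 0.56).

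The genes of the pigment program itself were not separated, and A375 read them far below Hs 936.T. MITF had 33.8 and 46.7 CPM in NCI-H1650 and 50.02 and 106 CPM in NCI-H520, against 1596 and 1497 CPM in Hs 936.T and 15.7 and 18.8 CPM in A375. A375 lay below every lung library for MITF, and without Hs 936.T the log2 difference was 1.68, against -1.54 with all lines. Over 9 pigment genes the NCI-H520 libraries had medians of 3.70% and 7.42% of the Hs 936.T level. The part of such reads in their MITF levels, and so in the 1.68, was not tested. In the NCI-H1650 libraries, which also lay above A375 for MITF, these medians were 0.462% and 0.212%. TYRP1, DCT, SLC45A2, TRPM1 and SLC24A5, genes of melanin synthesis and melanosomes, had 509 to 3083 CPM in Hs 936.T and at most 4.61 CPM in A375. Without the NCI-H520 libraries 7 of 24 pigment list genes were higher in both melanoma lines, beside 20.9% of all genes in that fit.

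Mesenchymal genes were split by line as well. Of 40 listed 21 were tested, 5 were higher in melanoma (23.8%) and 0 in lung, beside 6.45% and 6.77% of all genes. The list median was -0.49. Without NCI-H520, 6 of 22 were higher in melanoma and 5 in lung, beside 20.9% and 23.3% of all genes in that fit. FOSL1 stood at -3.92 there. VIM, which encodes vimentin, had 40.8 and 23.4 CPM in NCI-H1650 and 258 and 460 CPM in NCI-H520, against 3178 and 3299 CPM in Hs 936.T and 7445 and 8524 CPM in A375. The log2 difference was -5.55 ± 0.23 (adjusted p = 0.000272 in the weakest contrast, edgeR quasi-likelihood test). NCI-H520 lay above NCI-H1650, and without NCI-H520 the log2 difference was -7.30. SPARC, a secreted matrix protein gene, stood at 51.6 to 188 CPM in the lung libraries, against 1514 to 2472 CPM in the melanoma libraries (-3.88 ± 0.17), and the matrix metalloprotease gene MMP14 stood at 26.3 to 67.6 CPM, against 244 to 680 CPM (-3.41 ± 0.12). ZEB1, the repressor of E-cadherin, had 2 counts over the lung libraries and 13.3 to 58.7 CPM in the melanoma libraries, a ratio of melanoma to lung of 48.4 (95% counting interval 13.4 to 400). Its fitted log2 difference of -5.17 was -6.96 without NCI-H1650 DMSO replicate 1 and -6.94 without NCI-H520 DMSO replicate 2, which hold 1 count each. FOSL1, an AP-1 subunit and MAPK target, had 1.56 to 11.7 CPM in the lung libraries, against 26.5 and 28.4 CPM in Hs 936.T and 793 and 666 CPM in A375 (-4.95 ± 0.24). The related gene ZEB2 had 2.81 and 0 CPM in NCI-H1650 and 14.1 and 11.9 CPM in NCI-H520, against 208 and 199 CPM in Hs 936.T and 18.4 and 17.7 CPM in A375, and was not separated.

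Several markers often called mesenchymal did not follow tumour type. FN1, which encodes fibronectin, had 197 to 361 CPM in the lung libraries, against 1.92 and 0.887 CPM in Hs 936.T and 312 and 359 CPM in A375. THBS1 was read at 412 to 467 CPM in lung, 13.1 and 27.5 CPM in Hs 936.T, and 5162 and 4226 CPM in A375. The receptor gene AXL stood at 28.1 and 11.7 CPM in NCI-H1650 and 0 and 1.33 CPM in NCI-H520, against 0.384 and 0.887 CPM in Hs 936.T and 271 and 262 CPM in A375, and CAV1 was read in NCI-H1650 and A375 above NCI-H520 and Hs 936.T. Each of these split the lines of a tumour type from one another.

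Of 26 tested integrin, laminin and collagen genes 2 were higher in lung (7.69%) and 3 in melanoma (11.5%), beside 6.77% and 6.45% of all genes. ITGB4, the integrin of epithelial hemidesmosomes, had 46.4 to 211 CPM in the lung libraries, against 0.887 to 7.84 CPM in the melanoma libraries (5.23 ± 0.23). ITGB3, the vitronectin receptor subunit linked to invasive melanoma, had 0 counts in all lung libraries. It had 8.46 and 9.31 CPM in Hs 936.T and 367 and 456 CPM in A375. Against the mean of the melanoma libraries it was at least 195-fold lower in lung, a size that follows A375 and is no bound for Hs 936.T. ITGA9 had 3 counts in lung, a ratio of melanoma to lung of 19.3 (95% counting interval 6.59 to 93.4), and its fitted log2 difference of -4.06 was -5.85 without NCI-H1650 DMSO replicate 1. LAMA4 (-3.55 ± 0.38) lost its call without either NCI-H1650 library (adjusted p = 0.164 and 0.119, edgeR) and had the opposite sign, 0.74, where the entry with most counts per codon stood for the gene. It was not called without TMM scaling either. Without NCI-H520, 12 of 26 genes of the list were higher in lung and 3 in melanoma, beside 23.3% and 20.9% of all genes in that fit.

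Genes that report MAPK pathway activity were lower in lung where they were separated. Of 11 tested, 3 were higher in melanoma (FOSL1, ETV4 and DUSP4, 27.3%) and 0 in lung, beside 6.45% and 6.77% of all genes. The list median was -1.92. Without NCI-H520, 6 of 11 were higher in melanoma and 2 in lung, beside 20.9% and 23.3% of all genes in that fit. ETV4 stood at -5.03 and DUSP4 at -3.59 there. ETV4, an ETS factor induced by ERK, had 11.3 and 1.46 CPM in NCI-H1650 and 56.3 and 63.6 CPM in NCI-H520, against 284 and 292 CPM in Hs 936.T and 155 and 157 CPM in A375 (-3.42 ± 0.16, or -4.49 without NCI-H1650 DMSO replicate 1). DUSP4, a phosphatase that feeds back on ERK, had 23.9 to 99.4 CPM in lung, against 166 to 616 CPM in melanoma (-2.83 ± 0.13). Of 23 receptor and adaptor genes 2 went each way (8.70%), near the shares of all genes. ROR2, a WNT5A receptor, was at least 73.8-fold higher in lung and GRB7 had 1 melanoma count, a ratio of 268 (95% counting interval 48.1 to 10594; fitted log2 difference 7.08, or 7.69 without A375 DMSO replicate 2), while the collagen receptor gene DDR2 (-5.04 ± 0.35, or -6.83 without NCI-H1650 DMSO replicate 1 and -5.64 without NCI-H520 DMSO replicate 2) and IGF1R (-2.64 ± 0.16) were higher in melanoma.

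Among 17 NRF2 targets and glutathione genes 3 were higher in lung (17.6%) and 2 in melanoma (11.8%), beside 6.77% and 6.45% of all genes. Without NCI-H520 they were 5 and 6 of 16, beside 23.3% and 20.9% of all genes in that fit. ABCC1, a glutathione-conjugate exporter, had 188 to 304 CPM in lung, against 63.6 to 80.2 CPM in melanoma (1.74 ± 0.10); GPX2 and PGD were higher mostly through NCI-H520 and both lost their call without NCI-H1650 DMSO replicate 1 (adjusted p = 0.242 and 0.207, edgeR). NQO1 ran the other way (-0.93 ± 0.06), a call lost without NCI-H520 DMSO replicate 1 or A375 DMSO replicate 1 (adjusted p = 0.448 and 0.342, edgeR) and under DESeq2. The fitted log2 difference of GPX2, 8.62 on 1 melanoma count, was 7.48 without the NCI-H1650 library named and 9.23 without A375 DMSO replicate 2. GPX2 had 14.1 and 1.46 CPM in NCI-H1650 and 367 and 349 CPM in NCI-H520. The part of NCI-H520 reads in its NCI-H1650 levels was not tested. Of 12 interferon-stimulated genes, MX1 and OAS1 were separated toward lung (16.7%), led by NCI-H1650. MX1 had 1344 and 1740 CPM in NCI-H1650 and 18.8 and 42.4 CPM in NCI-H520, against 1.15 to 17.1 CPM in melanoma. Without NCI-H520 DMSO replicate 2 neither was called (adjusted p = 0.646 for MX1 and 0.715 for OAS1, edgeR), MX1 was also lost without A375 DMSO replicate 2 (0.126), and OAS1 without any 1 of 7 libraries and under DESeq2. Without NCI-H520, all 12 were higher in NCI-H1650 than in both melanoma lines, beside 23.3% of all genes in that fit.

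Cell cycle and DNA replication genes were separated mostly toward melanoma, at 14.3% and 12.9% of the tested members beside 6.45% of all genes. MDM2, an E3 ubiquitin ligase gene, stood at 26.6 to 61.4 CPM in lung and 130 to 150 CPM in melanoma (-1.69 ± 0.13), and it was not called on the entry with most counts per codon. Of 21 cell cycle genes 1 was higher in lung (CCND3, a call lost without A375 DMSO replicate 2, adjusted p = 0.0669, edgeR) and 3 in melanoma, and of 31 DNA replication genes 0 and 4, led by the clamp loader gene RFC3 (-1.68 ± 0.11) and the thymidylate synthase gene TYMS (-1.21 ± 0.08). Without NCI-H520, 25 of the 31 replication genes were higher in both melanoma lines than in NCI-H1650, beside 20.9% of all genes in that fit.

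Ribosomal protein and initiation factor genes were separated at shares near those of all genes, 6.77% toward lung and 6.45% toward melanoma. The shares were 4.44% and 6.67% of ribosomal protein genes and 8% each way of initiation factor genes. Of 45 cytosolic ribosomal protein genes, 2 were higher in lung (RPS15A 0.75 ± 0.05 and RPS19 0.37 ± 0.06) and 3 in melanoma, among them RPS23 (-0.76 ± 0.06) and RPS20 (-0.62 ± 0.06), with a median log2 difference of -0.02. Without NCI-H520, where 23.3% of all 8039 tested genes were higher in lung and 20.9% in melanoma, 20 of 45 ribosomal protein genes, 12 of 25 initiation factor genes, 11 of 18 tRNA synthetase genes and 9 of 19 proteasome genes were higher in melanoma. RPS20 lost its call without NCI-H520 DMSO replicate 1 (adjusted p = 0.071, edgeR) and on the entry with most counts per codon; these genes have many pseudogenes, and shared reads are uncertain. Of 25 translation initiation factor genes, EIF3H (0.67 ± 0.06) and EIF3E (0.47 ± 0.06) were higher in lung and EIF1 (-0.94 ± 0.06) and EIF3L (-0.51 ± 0.06) in melanoma; EIF3E and EIF3L were not called on the entry with most counts per codon. EIF1, which guards start codon choice, had 754 to 1180 CPM in lung, against 1567 to 1873 CPM in melanoma, so that the groups did not overlap. Proteasome, respiratory chain, tRNA synthetase and cholesterol genes had between 0 and 2 separated members in each direction, and antigen presentation and cancer/testis antigen genes had none. Of 14 glycolysis genes 2 were higher in lung and 2 in melanoma. Of these, GAPDH, higher in lung (0.33 ± 0.05), was not called under DESeq2, without TMM scaling, without the count filter or on thinned counts. ALDOC, higher in melanoma (-1.30 ± 0.13), was not called under DESeq2 or on the entry with most counts per codon. The glucose transporter gene SLC2A1 (1.74 ± 0.08) was higher in lung and the phosphofructokinase gene PFKP (-1.70 ± 0.08) in melanoma; SLC2A1 lost its call without NCI-H1650 DMSO replicate 1 or A375 DMSO replicate 2 (adjusted p = 0.332 and 0.131, edgeR), without the count filter and on the entry with most counts per codon. Among actin-linked genes, the actin crosslinker FLNA was read at 162 to 363 CPM in lung, against 1035 to 1288 CPM in melanoma (-2.31 ± 0.07), while the epithelial myosin gene MYH14 (3.23 ± 0.15) and ANXA2 (0.89 ± 0.05) were higher in lung. The tetraspanin gene CD63, carried by lysosomes and melanosomes, had 319 to 561 CPM in lung, against 826 to 4306 CPM in melanoma (-2.07 ± 0.07).

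**Figure D4:**
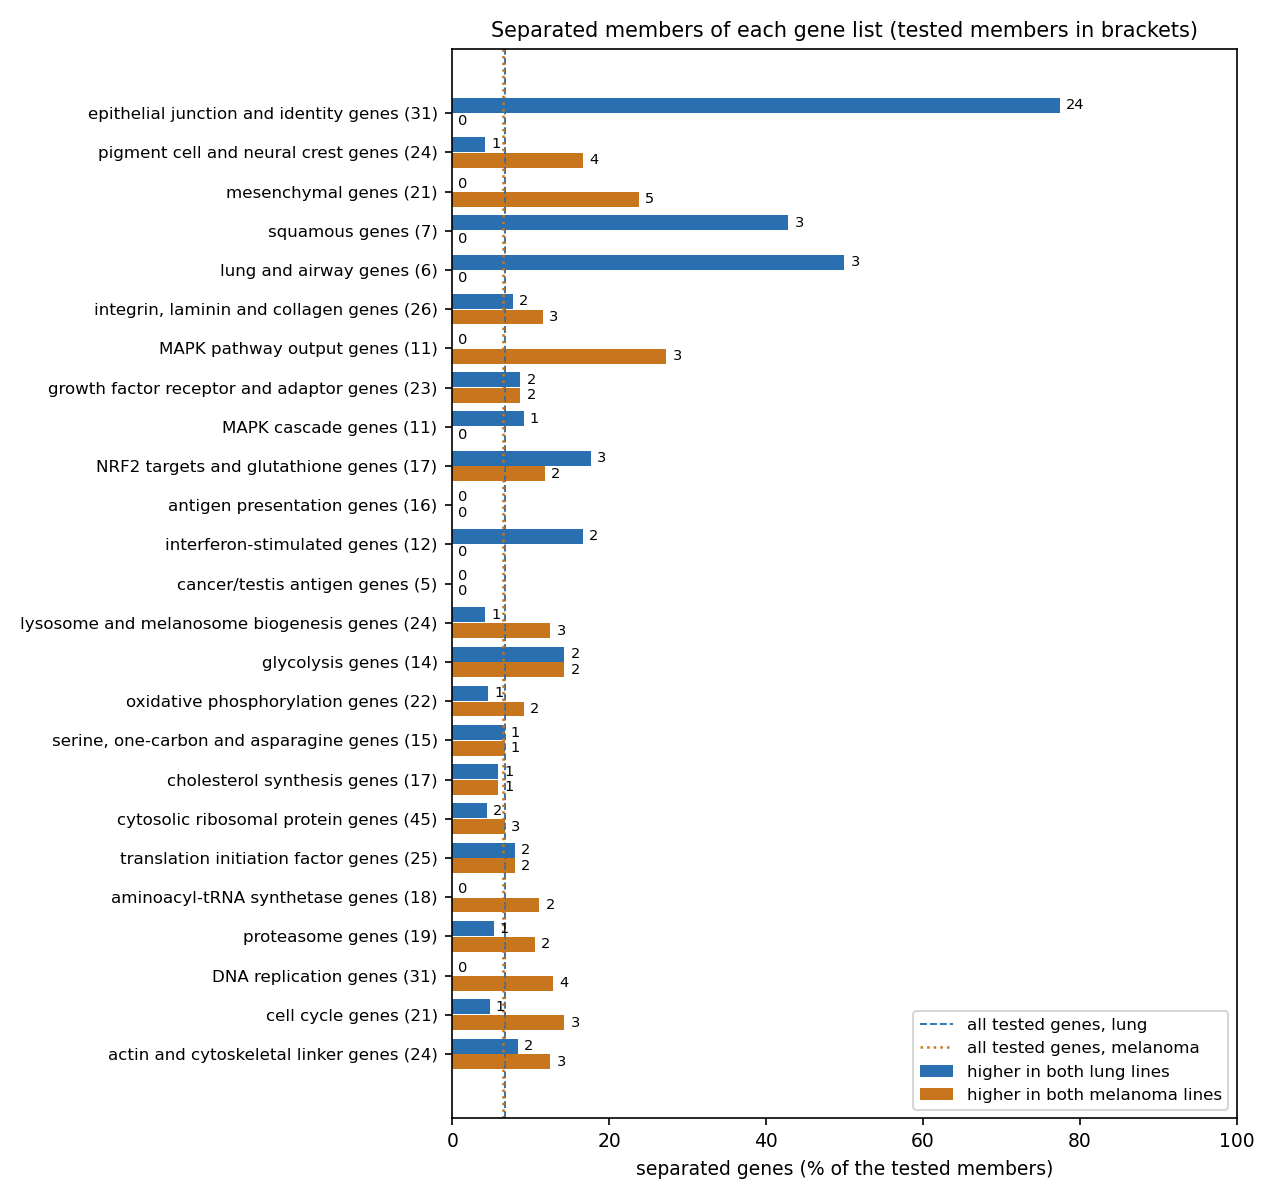
Separated members of each gene list with at least 5 tested genes, as a percent of the tested members, with the number beside each bar, blue for higher in both lung lines and orange for higher in both melanoma lines. The dashed and dotted lines give the share over all 7917 tested genes, 6.77% and 6.45%; the epithelial list, with 24 of 31 genes, stands farthest from them.

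The RocA libraries of the same lines, which the selection did not use, were ordered the same way for part of the separated genes. These are 8 libraries, 1 per line and dose of the translation inhibitor rocaglamide A, so no gene could be tested; the cell-line label of the NCI-H520 library at 3 µM also reads NCI-H521. At 0.3 µM both lung lines lay above both melanoma lines for 342 of the 536 lung-higher genes (63.8%), beside 1208 of all 7917 tested genes (15.3%), and both melanoma lines lay above for 392 of the 511 melanoma-higher genes (76.7%), beside 1341 of all (16.9%). At 3 µM the counts were 282 (52.6%) beside 1069 (13.5%) and 351 (68.7%) beside 1395 (17.6%). These orders use TMM over the 16 libraries; scaled by library total, the lung-higher genes kept their order in 335 of 536 (62.5%) at 0.3 µM and in 267 (49.8%) at 3 µM, with 20 reversed at 3 µM. With TMM the reversed order was seen for 4 and 3 genes at 0.3 µM and for 10 and 3 at 3 µM. The treated libraries are shallow, with 55104 to 304206 counts in the lung lines and 304037 to 641138 in the melanoma lines, and a gene at 0 in several lines cannot keep an order. KRT19, scaled to the library total, had 5270 CPM in NCI-H1650 and 1232 CPM in NCI-H520 at 0.3 µM, against 0 counts in both melanoma lines, and 4664 and 924 CPM against 0 at 3 µM. CDH1 had 1869 and 221 CPM in the lung lines at 0.3 µM, against 0 in both melanoma lines, and 2105 and 247 CPM at 3 µM, against 3.06 CPM in Hs 936.T and 0 in A375. VIM had 24.5 CPM in NCI-H1650 and 53.6 CPM in NCI-H520 at 0.3 µM, against 1878 CPM in Hs 936.T and 4632 CPM in A375. For all 3 genes the order under DMSO was seen again at both doses.

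**Figure D5:**
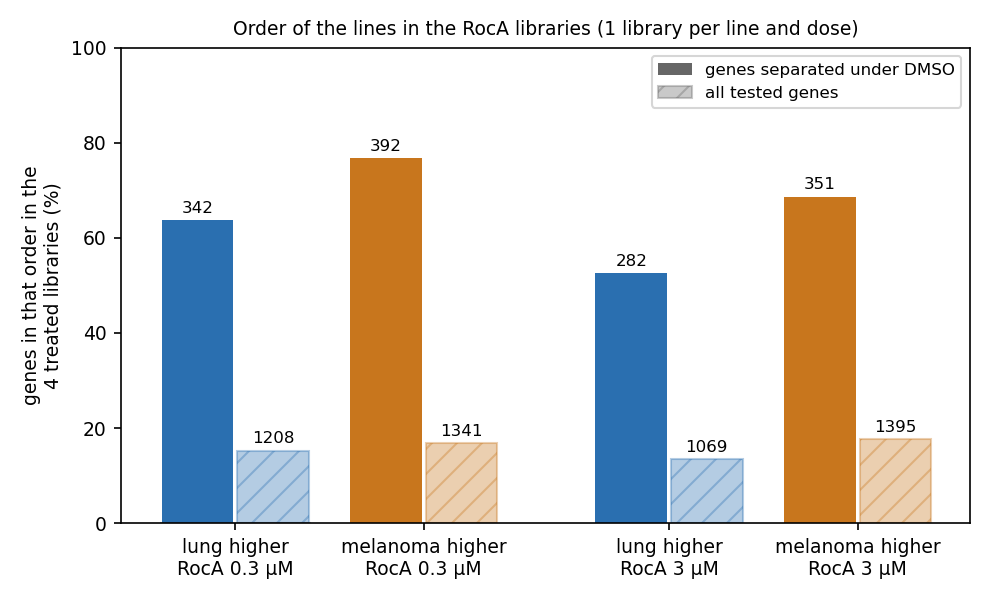
Percent of genes for which both lines of the named tumour type lie above both of the other in the RocA libraries, for genes separated under DMSO (solid bars) and all 7917 tested genes (hatched bars), at each dose, with the number of genes above each bar. The solid bars range from 52.6% to 76.7% and the hatched bars from 13.5% to 17.6%.

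The edge of the selection was set by the weakest of the 4 contrasts. On the lung side ALDH1L1, a folate enzyme gene, was the last gene inside, with 4.22 and 0 CPM in NCI-H1650 and 17.2 and 25.2 CPM in NCI-H520 and 1 melanoma count (fitted log2 difference 5.67, or 3.22 without NCI-H1650 DMSO replicate 1 and 6.28 without A375 DMSO replicate 2), and the kallikrein gene KLK10, with 64.7 and 102 CPM in NCI-H1650 and 0 and 2.65 CPM in NCI-H520, was the first outside. On the melanoma side BBIP1 (-1.10 ± 0.24) was the last inside and CNOT10 (-0.63 ± 0.13) the first outside. ALDH1L1 and BBIP1 lost their calls without any 1 of 7 and 5 libraries.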

How the data were processed

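Ribosome footprints were counted per transcript entry. The deposited files hold the authors' raw counts and a codon number for each entry; the submitters' processing notes name CASAVA 1.8, Bowtie2 2.1.0, TopHat2 2.0.9 and hg38, and the counting tool, annotation release and rule for shared reads are not given in the sources used here. Entries carry no gene names. Genes were named by matching codon numbers of neighbouring entries (coding codons less 10) to GENCODE 29 coding genes, which named 10785 of 19385, of which 10775 were used after genes on chromosome Y and a repeated symbol were left out; lengths shifted by 37 codons passed for 49 decoys, 0.546% of the main matches. The entry with the most counts over 16 libraries stood for a gene. Coordinates are GRCh38, from GENCODE.

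Counts of the 8 DMSO libraries were fitted with edgeR 4.0.16 (R 4.3.3; TMM, filter at a minimum count of 10, robust quasi-likelihood, 1 term per line), and sizes are the mean of the lung lines less that of the melanoma lines on the log2 scale. The tumour-type test used counts summed per line, with DESeq2 1.42.0 as the other tool. CPM are scaled by TMM for DMSO libraries and by library total for RocA libraries, whose order of lines was read on log2 CPM with TMM over 16 libraries. A fold against a type with 0 counts takes 3 counts over its libraries as the floor. The level set against it is the mean CPM over all libraries of the higher type. The fold therefore follows the higher line and is not a bound for each line. Ratios on 1 to 3 counts have a 95% counting interval, which is exact for those counts alone. The mean level of the higher type is taken as known, so its counting error is not covered. Where only 1 line of the lower type had 0 counts, the fitted size is given. It depends in part on the value the fit gives to 0 counts, which the SE does not cover. The fits were tested on simulated data. Replicate numbers do not pair the libraries: same-numbered deviations correlated between -0.058 and 0.099 across pairs of lines. The members, gene lists and motifs were chosen with earlier results of these data known. Genes named are the 15 largest per direction with at least 10 CPM in both lines of the higher type, separated members of the marker lists, up to 3 per direction of other lists, the tissue markers, and the genes at the threshold. Alternatives are given in the closing section. Some items are not reported here.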

Additional observations from a re-analysis of the deposited data

How the results depend on the processing

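The separated genes numbered 536 higher in lung and 511 higher in melanoma. Leaving out 1 library at a time gave 438 to 474 and 401 to 492. With the replicate number as a block they were 522 and 501. Under DESeq2 323 were higher in melanoma, under stricter naming 289 in lung and 302 in melanoma, and on the entry with most counts per codon 320 in melanoma; fewer genes enter the fits by stricter naming and by counts per codon (4468 and 6399). A left-out line leaves fewer contrasts to pass: without NCI-H1650 1346 and 1228 genes were separated, without NCI-H520 1873 and 1681, without Hs 936.T 896 and 1058, without A375 1197 and 1355, and with NCI-H1650 DMSO replicate 2 alone as lung (chosen after seeing the data, as were thinning and naming at the main score only) 1524 and 1443. The tumour-type test gave 166 and 54 calls under DESeq2 and 360 and 318 with 8 libraries as replicates, and 0 (388 to 713 genes at an unadjusted p under 0.05, 273 under stricter naming) under the other alternatives. Among genes with at least 10 counts at each dose, the order was kept for 75% of lung-higher and 80.4% of melanoma-higher genes at 0.3 µM (15.7% and 18.9% of all such genes) and for 64.1% and 70.2% at 3 µM (14.6% and 18.9%); scaled by library total the shares were 62.5%, 77.7%, 49.8% and 70.8% (14.6%, 17.6%, 11.2% and 20.3% of all genes). Scaling moved the median of all genes to 0.03 at most.

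Some log2 differences turned sign: MITF 1.68, THBS1 -3.40 and MMP2 -1.83 without Hs 936.T; TFAP2A -1.44 and ST6GALNAC2 -3.32 without A375; CAV2 1.79 and LGALS1 1.34 without NCI-H520, and 1.73 and 1.44 with NCI-H1650 DMSO replicate 2 alone, a lone library assumed to vary like the others; and LAMA4 0.74 on the entry with most counts per codon. The cause was not tested. The lower depth of the lung libraries limits genes near 0 there.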

Other observations

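The separated genes were spread unevenly over chromosomes. Of 118 tested genes on chromosome 13, 0 were higher in both lung lines and 31 (26.3%) in both melanoma lines, with a median log2 difference of -0.89. On chromosome 16, 67 of 408 (16.4%) were higher in lung and 9 in melanoma, with a median of 0.37. Chromosome 3 had 25 of 516 higher in lung and 62 (12.0%) in melanoma, with a median of -0.29, and chromosome 11 had 42 of 473 higher in lung and 17 in melanoma. Over all tested genes the shares were 6.77% and 6.45%. The chromosomes were singled out after their values were seen, no difference between chromosomes was tested, and DNA copy number was not analysed here.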
